A study of Mus musculus with 8 samples.

Results

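Heart muscle transcripts in mouse lung are the subject here, followed through 37 genes of striated muscle that were measured in whole-lung RNA. The genes were a given list, each was represented by its brightest probe set (the group of probes that measures 1 transcript) by the mean of 8 arrays, and all 37 had 1 probe set with a single annotated symbol, out of 19937 genes with such a symbol. The arrays came from the lungs of untreated mice at postnatal day 21. The comparison set 4 mice whose strain is labelled beta-catenin stabilized against 4 whose strain is labelled beta-catenin knockout. Beta-catenin carries the canonical Wnt signal to the nucleus and also holds cell junctions together, and a stabilized form escapes its normal degradation. The labels name no Cre driver, no altered exon and no targeted cell type. Wild-type lungs were not analysed here, so every difference is one between the altered lines, with no normal level to set it against.

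In the mouse, a sleeve of heart muscle continues from the left atrium along the pulmonary veins into the lung, so RNA of a whole lung carries transcripts of cardiomyocytes. The vein was not sampled on its own, and whether a transcript came from it was not measured. These cells build sarcomeres from thick myosin and thin actin filaments, release calcium from the sarcoplasmic reticulum through ryanodine receptors to contract, and pump it back to relax. Skeletal muscle uses the same plan with partly different gene copies, and the genes were therefore separated by textbook use. A cardiac class of 12 genes is used mainly in heart among striated muscles, a shared class of 21 is used in heart and in slow or all skeletal muscle, and a skeletal class of 4 belongs to skeletal muscle.

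Among the genes that passed the test, more were lower than higher in stabilized lungs. Of the 37 genes, 11 were lower, 2 were higher and 24 did not pass the test (limma with Benjamini-Hochberg adjustment over all genes, adjusted p under 0.05). Over all 19937 genes, 9.62% were called, 4.96% lower and 4.65% higher. The cardiac class had 4 of 12 lower and 0 higher, while 12 of 12 differences were negative and 11 had an unadjusted p under 0.05. Over all 19937 genes, 10398 differences were negative and 4923 genes had an unadjusted p under 0.05. The shared class had 7 of 21 lower and 1 higher, and the skeletal class had 0 of 4 lower and 1 higher. The median log2 difference, stabilized minus knockout, was -0.36 in the cardiac class, -0.26 in the shared class and -0.10 in the skeletal class, against -0.01 over all genes. The classes also differed in brightness, with 11 of 12 cardiac, 12 of 21 shared and 0 of 4 skeletal genes above the median gene level of 6.42, and changes of dim probe sets are compressed. These lungs are mixtures, so fewer muscle cells and less RNA per muscle cell cannot be told apart.

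**Figure D1:**
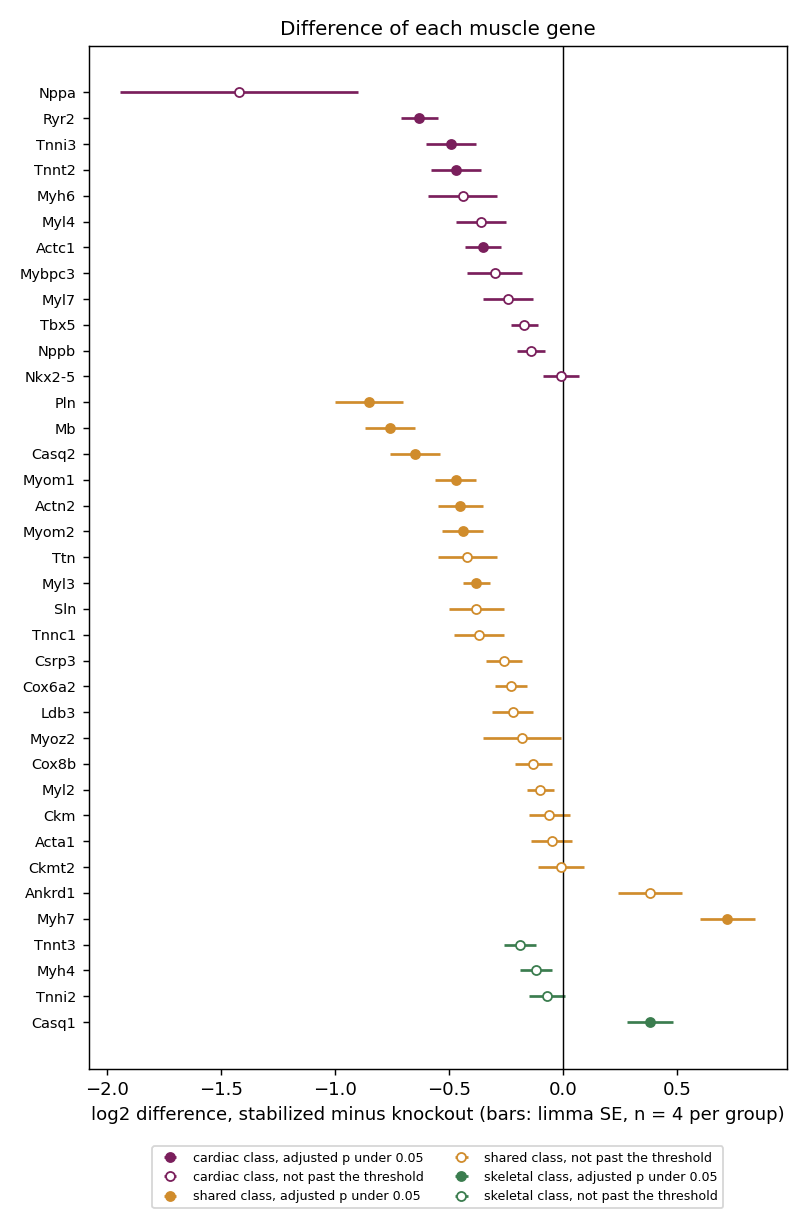
Log2 difference (stabilized minus knockout, horizontal axis) of each of the 37 genes, with limma standard errors and n = 4 per group. Filled points passed the test. The cardiac class (purple) lies at or left of 0, Myh7 of the shared class (orange) and Casq1 of the skeletal class (green) lie to the right.

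The 8 arrays were close to each other, with correlations over all genes of 0.993 to 0.996 within a group and 0.987 to 0.993 between groups. The labels describe every mouse as male, but 4 arrays did not show it. Xist, the RNA of the inactive X chromosome, was at a log2 value of 10.36 to 10.59 in stabilized replicates 1 and 4 and knockout replicates 1 and 3, and at 4.18 to 4.62 in stabilized replicates 2 and 3 and knockout replicates 2 and 4. Kdm5d, Eif2s3y and Uty, genes of the Y chromosome, were at 3.08 to 4.00 in the high-Xist arrays and at 6.71 to 8.35 in the rest. Both patterns were found in 2 arrays of each group, and results that move with this pattern are given with it below. Nothing in the labels dates or batches the arrays, and the p-values measure the spread between 4 mice of a group.

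Thick filament genes encode the myosin motors and their light chains, and among 8 of them 1 was lower, 1 was higher and 6 did not pass. Myh7, the slow beta heavy chain of ventricle and slow skeletal muscle, had log2 expression of 7.94, 8.01, 7.64 and 7.70 in stabilized lungs and 7.21, 7.31, 7.15 and 6.74 in knockout lungs, with replicates 1 to 4 in order here and below. Every stabilized array lay above every knockout array, a log2 difference of 0.72 ± 0.12 (SE from limma with 4 arrays per group, adjusted p = 0.0024) or 1.65-fold higher. Myh6, the fast alpha heavy chain of atrium and adult mouse ventricle, had 8.43, 8.86, 8.26 and 8.46 in stabilized lungs and 9.34, 8.64, 9.04 and 8.74 in knockout lungs. Stabilized replicate 2 lay within the knockout range, and the log2 difference of -0.44 ± 0.15 (SE) did not pass (limma adjusted p = 0.096). Of 8 fits that each left out 1 array, only the one without stabilized replicate 2 called it (limma adjusted p = 0.046, and up to 0.21 in the others). The genes are neighbours on chromosome 14 and encode similar proteins, so probes may not fully tell them apart, and their differences ran in opposite directions.

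The light chains of the atrium had negative differences like Myh6. Myl4, the atrial essential light chain, had 8.50, 8.58, 8.35 and 8.58 in stabilized lungs and 9.05, 8.63, 9.10 and 8.68 in knockout lungs. The groups did not overlap, but the log2 difference of -0.36 ± 0.11 (SE) missed the threshold (limma adjusted p = 0.056). It passed in 2 of 8 leave-one-out fits, those without knockout replicate 2 or 4 (limma adjusted p = 0.03 and 0.038, and up to 0.15 in the others). Myl7, the atrial regulatory light chain, averaged 8.13 ± 0.05 in stabilized and 8.37 ± 0.27 in knockout lungs (SD of 4 arrays), with the highest knockout values of 8.71 and 8.45 in replicates 1 and 3 (limma adjusted p = 0.2). Its log2 difference of -0.24 was -0.13 without knockout replicate 1. Myl3, the ventricular and slow skeletal essential light chain, was at 5.90, 5.81, 5.80 and 5.79 in stabilized and 6.16, 6.19, 6.21 and 6.24 in knockout lungs. This was a small and even separation with a log2 difference of -0.38 ± 0.06 (SE, limma adjusted p = 0.0015). Myl2, the ventricular regulatory light chain, was dim at 4.37 to 4.58 in all 8 arrays and differed by -0.10 ± 0.06 (SE, limma adjusted p = 0.39). Mybpc3, the cardiac myosin binding protein C, averaged 6.46 ± 0.18 in stabilized and 6.75 ± 0.27 in knockout lungs (SD of 4 arrays, limma adjusted p = 0.17), and Myh4, a fast skeletal heavy chain, was dim at 4.25 to 4.57.

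The 250 bases before the annotated start are shown for Myh6 and Myh7 because the genes lie side by side and their differences had opposite signs. Only the difference of Myh7 passed the test. Capitals mark matches to any of 7 motifs of muscle, Wnt and core promoters, searched on both strands except for the TATA motif (TATAAA), which was read on the gene's strand. The motifs were the MEF2 motif, the CArG box of SRF, the GATA motif (AGATAA), the NKX2-5 motif (TNAAGTG), the M-CAT motif of TEAD factors (CATTCC) and the TCF/LEF motif of Wnt signalling (ATCAAAG). The sequences are RefSeq promoters of the build GRCm38.p6, from chr14:54966608-54966857, minus strand, and from chr14:54994627-54994876, minus strand, for the farther upstream of the 2 Myh7 starts listed.
Myh6: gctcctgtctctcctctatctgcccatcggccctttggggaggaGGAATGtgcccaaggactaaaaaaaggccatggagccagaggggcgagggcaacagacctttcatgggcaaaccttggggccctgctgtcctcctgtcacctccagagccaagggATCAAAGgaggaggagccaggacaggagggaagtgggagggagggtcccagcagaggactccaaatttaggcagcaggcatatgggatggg
Myh7: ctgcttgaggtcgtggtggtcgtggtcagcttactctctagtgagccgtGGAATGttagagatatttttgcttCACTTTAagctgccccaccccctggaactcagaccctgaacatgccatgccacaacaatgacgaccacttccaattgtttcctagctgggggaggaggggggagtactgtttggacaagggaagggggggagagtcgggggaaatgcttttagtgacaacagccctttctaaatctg
Both windows hold the M-CAT motif read on the opposite strand (GGAATG), at -206 to -201 from the start in Myh6 and at -201 to -196 in Myh7. Myh6 alone of the pair holds the TCF/LEF motif, at -91 to -85, and Myh7 alone the NKX2-5 motif, at -177 to -171 on the opposite strand. The window of the other listed Myh7 start, not shown, held no match to any of the motifs. The listed motifs had 0 matches overlapping each other in the windows shown. A match describes letters only, and binding was not measured.

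Thin filament genes encode actins and the troponin switch that calcium throws, and 3 of 7 were lower and 0 were higher. Tnnt2, the cardiac troponin that ties the complex to tropomyosin, had 8.79, 9.14, 8.73 and 8.94 in stabilized lungs and 9.52, 9.21, 9.52 and 9.21 in knockout lungs. No array of one group lay among the other, at a log2 difference of -0.47 ± 0.11 (SE, limma adjusted p = 0.015), but omitting stabilized replicate 1 or knockout replicate 3 ended the call (adjusted p = 0.053 and 0.054). Tnni3, the cardiac inhibitory troponin, had 6.70, 6.50, 6.62 and 6.63 in stabilized lungs and 7.25, 6.92, 7.40 and 6.83 in knockout lungs. The stabilized arrays lay close together and the knockout arrays were spread, at a log2 difference of -0.49 ± 0.11 (SE, limma adjusted p = 0.017, and 0.055 without stabilized replicate 2).

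Actc1, cardiac alpha-actin, had 10.69, 10.51, 10.65 and 10.77 in stabilized lungs and 11.03, 10.90, 11.15 and 10.93 in knockout lungs. The groups did not overlap and the log2 difference was -0.35 ± 0.08 (SE, limma adjusted p = 0.014), a call that ended without knockout replicate 3 (adjusted p of 0.05 after rounding). Acta1, its close relative in skeletal muscle, had 6.51, 6.61, 6.56 and 6.80 in stabilized lungs and 6.48, 6.70, 6.68 and 6.81 in knockout lungs. These ranges overlapped almost entirely (log2 difference -0.05 ± 0.09, SE, limma adjusted p = 0.78), although actin genes are similar and probes may respond to more than 1 of them. Tnnc1, the calcium-binding troponin of heart and slow muscle, had 7.16 to 7.33 in stabilized and 7.34 to 7.95 in knockout lungs without overlap, and missed the threshold (log2 difference -0.37 ± 0.11, SE, limma adjusted p = 0.065). It passed in 1 of 8 leave-one-out fits, without knockout replicate 4 (limma adjusted p = 0.024, and up to 0.16 in the others). The fast skeletal troponins Tnnt3 and Tnni2 did not pass, with log2 differences of -0.19 ± 0.07 and -0.07 ± 0.08 (SE, limma adjusted p = 0.12 and 0.63).

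The promoter of Actc1 is shown because its CArG box, a site of the kind bound by SRF, is the motif that most exceeded its share among all genes. It lies at -47 to -38 in the following 250 bases before the start (GRCm38.p6, chr2:114052876-114053125, minus strand).
Actc1: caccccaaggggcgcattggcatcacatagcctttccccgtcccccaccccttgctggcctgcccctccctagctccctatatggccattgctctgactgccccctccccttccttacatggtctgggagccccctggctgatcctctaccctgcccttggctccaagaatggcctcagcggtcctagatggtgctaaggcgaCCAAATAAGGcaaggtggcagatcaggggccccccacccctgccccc
Of the 37 genes, 31 had a promoter in the table. The CArG box was found in 7 of these 31 genes (22.6%), namely Acta1, Actc1, Ldb3, Myh4, Myl3, Myl7 and Myom1, against 1.62% of 27025 genes. The MEF2 motif was found in 5 genes (16.1%, against 3.42%) and the M-CAT motif in 10 (32.3%, against 14.4%). The GATA motif stood in 6 (19.4%, against 11.4%), the TATA motif in 5 (16.1%, against 8.94%), the NKX2-5 motif in 3 (9.68%, against 11.4%) and the TCF/LEF motif in 2 (6.45%, against 3.72%). Of the 10 genes called lower that had a promoter, 3 held a CArG box, 3 a GATA motif, 2 an M-CAT motif, and 1 each a MEF2, a TCF/LEF or a TATA motif. Mb was the lower gene with the TCF/LEF motif, on the opposite strand at -93 to -87 from the farthest upstream of its 3 listed starts. The windows of its other listed starts held no match to any of the motifs.

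Calcium handling genes showed some of the largest differences, with 3 of 5 lower and 1 higher. Ryr2, the ryanodine receptor that releases calcium in cardiomyocytes, had 6.52, 6.65, 6.41 and 6.56 in stabilized lungs and 7.30, 7.11, 7.27 and 6.99 in knockout lungs. All stabilized arrays were below all knockout arrays by a wide gap, with a log2 difference of -0.63 ± 0.08 (SE, limma adjusted p = 4.3e-04) or 1.55-fold lower. Pln, phospholamban, which restrains the calcium pump in heart and smooth muscle, had 6.36, 6.69, 5.93 and 6.21 in stabilized lungs and 7.11, 7.18, 7.42 and 6.88 in knockout lungs. The log2 difference of -0.85 ± 0.15 (SE, limma adjusted p = 0.0029) was the largest decrease among the called genes of the 37, at 1.8-fold.

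Casq2, the calsequestrin that stores calcium in heart, had 5.69, 5.94, 5.58 and 5.80 in stabilized lungs and 6.42, 6.18, 6.70 and 6.32 in knockout lungs. It was lower without overlap (log2 difference -0.65 ± 0.11, SE, limma adjusted p = 0.0024). Casq1, the calsequestrin of skeletal muscle, ran the other way at 5.54, 5.65, 5.66 and 5.77 in stabilized lungs and 5.02, 5.21, 5.57 and 5.31 in knockout lungs. Its log2 difference was 0.38 ± 0.10 (SE, limma adjusted p = 0.038), knockout replicate 3 overlapped the stabilized arrays, and 7 of 8 leave-one-out fits did not call it (adjusted p = 0.055, 0.082, 0.071 and 0.085 without stabilized replicates 1 to 4, and 0.086, 0.098 and 0.063 without knockout replicates 1, 2 and 4). Sln, sarcolipin, a small regulator of the calcium pump in atria and skeletal muscle, averaged 5.26 ± 0.16 in stabilized and 5.64 ± 0.27 in knockout lungs (SD of 4 arrays, limma adjusted p = 0.071). It passed in 1 of 8 leave-one-out fits, without knockout replicate 2 (limma adjusted p = 0.015, and up to 0.2 in the others).

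The promoters of Pln and Casq2 are shown as those of the strongest decreases in this group that held a muscle or cardiac motif. They are the 250 bases before each start (GRCm38.p6, chr10:53337436-53337685, plus strand, and chr3:102086165-102086414, plus strand).
Pln: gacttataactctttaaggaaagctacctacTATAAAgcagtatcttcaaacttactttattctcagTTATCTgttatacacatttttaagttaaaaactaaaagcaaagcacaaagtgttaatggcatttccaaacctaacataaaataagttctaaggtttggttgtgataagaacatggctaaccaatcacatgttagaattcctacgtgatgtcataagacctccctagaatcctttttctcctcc
Casq2: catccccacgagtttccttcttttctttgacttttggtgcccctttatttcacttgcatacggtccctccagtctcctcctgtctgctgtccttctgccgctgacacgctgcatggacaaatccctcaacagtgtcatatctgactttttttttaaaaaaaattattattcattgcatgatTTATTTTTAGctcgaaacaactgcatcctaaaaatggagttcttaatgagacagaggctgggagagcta
Pln holds a GATA motif on the opposite strand at -183 to -178 and a TATA motif far from the start at -219 to -214. Casq2 holds a MEF2 motif at -69 to -60.

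**Figure D2:**
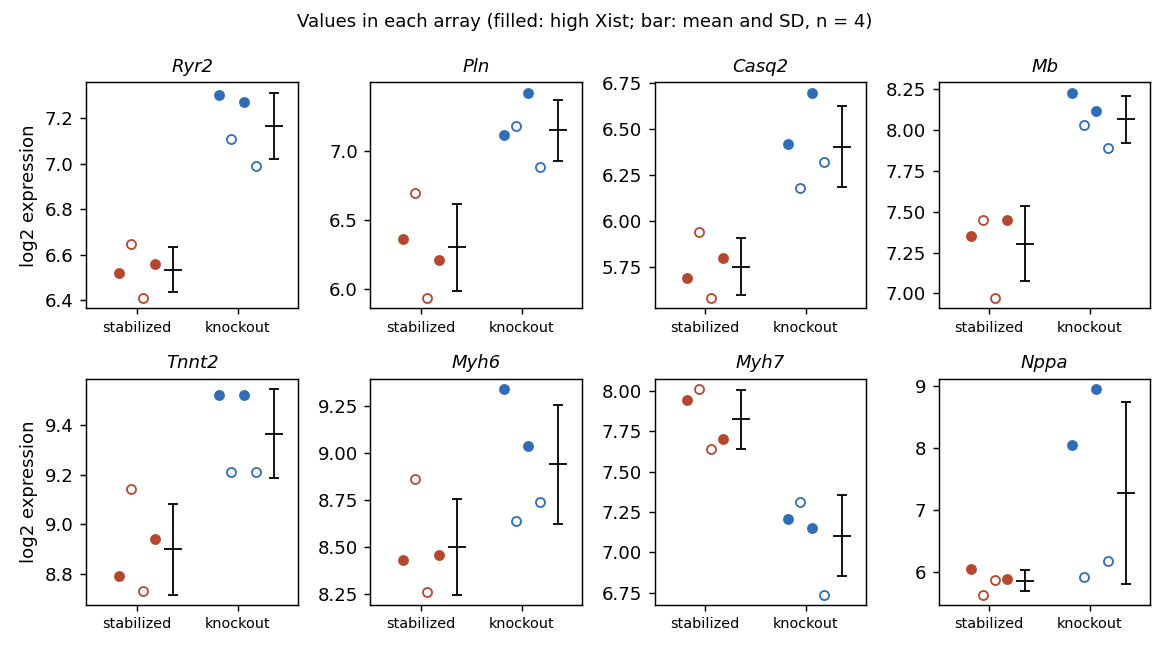
Log2 expression of 8 genes in each array, with stabilized arrays in red at left, knockout arrays in blue at right, filled points for high-Xist arrays, and the mean with SD (n = 4) beside each group. Ryr2, Pln, Casq2, Mb, Tnnt2 and Myh7 show no overlap of the groups. Nppa is between 5.63 and 6.04 in stabilized arrays, and at 8.04 and 8.95 in the high-Xist and 5.92 and 6.18 in the low-Xist knockout arrays.

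Genes of titin, the M band and the Z disc, which hold the filaments in register, were lower in 3 of 7 cases with 0 higher. Myom1 and Myom2, the myomesins of the M band, had log2 differences of -0.47 ± 0.09 and -0.44 ± 0.09 (SE, limma adjusted p = 0.0043 and 0.0072). Myom1 lay at 6.62 to 6.74 in stabilized and 6.94 to 7.32 in knockout lungs, and Myom2 at 5.43 to 5.71 in stabilized and 5.81 to 6.15 in knockout lungs, without overlap in either gene. Actn2, the alpha-actinin of the Z disc, had 6.97, 6.98, 7.04 and 6.85 in stabilized lungs and 7.54, 7.20, 7.67 and 7.24 in knockout lungs. It was lower without overlap (log2 difference -0.45 ± 0.10, SE, limma adjusted p = 0.014). Ttn, the giant spring protein titin, had 7.05, 7.33, 6.88 and 7.05 in stabilized lungs and 7.77, 7.34, 7.69 and 7.21 in knockout lungs. The groups overlapped (log2 difference -0.42 ± 0.13, SE, limma adjusted p = 0.057). Ttn passed in 2 of 8 leave-one-out fits, without stabilized replicate 2 or knockout replicate 4 (limma adjusted p = 0.038 and 0.021, and up to 0.15 in the others). Csrp3, a Z disc LIM protein, had a difference of -0.26 ± 0.08 (SE, limma adjusted p = 0.069). It passed in 1 of 8 leave-one-out fits, without stabilized replicate 2 (limma adjusted p = 0.026, and up to 0.18 in the others). Ldb3 and Myoz2, other Z disc proteins, had -0.22 ± 0.09 and -0.18 ± 0.17 (SE, limma adjusted p = 0.15 and 0.55). The difference of Myoz2 was 0.00 without knockout replicate 3, its highest array at 6.01, and -0.30 without knockout replicate 4.

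Of 5 genes of oxygen and energy supply, 1 was lower and 0 were higher, and all 5 differences were negative. The lower one was Mb, myoglobin, the oxygen store of striated muscle, which had 7.35, 7.45, 6.97 and 7.45 in stabilized lungs and 8.23, 8.03, 8.12 and 7.89 in knockout lungs. The groups were well apart at a log2 difference of -0.76 ± 0.11 (SE, limma adjusted p = 8.7e-04) or 1.7-fold lower. The muscle creatine kinases Ckm and Ckmt2, which buffer ATP in cytosol and mitochondria, had log2 differences of -0.06 ± 0.09 and -0.01 ± 0.10 (SE, limma adjusted p = 0.76 and 0.98) and overlapping groups. Cox6a2 and Cox8b, the muscle forms of cytochrome oxidase subunits, had -0.23 ± 0.07 and -0.13 ± 0.08 (SE, limma adjusted p = 0.055 and 0.32). Cox6a2 had groups that did not overlap. It passed in 1 of 8 leave-one-out fits, without knockout replicate 4 (limma adjusted p = 0.032, and up to 0.15 in the others).

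Of 5 genes of hormones, stress and transcription, 0 passed (limma, 4 of 5 with an unadjusted p under 0.05, against 4923 of all 19937 genes). Nppa, atrial natriuretic peptide, had 6.04, 5.63, 5.87 and 5.88 in stabilized lungs and 8.04, 5.92, 8.95 and 6.18 in knockout lungs. Knockout replicates 1 and 3 stood far above all other arrays while replicates 2 and 4 lay near the stabilized range, so the SD was 0.17 in stabilized and 1.47 in knockout lungs. The log2 difference of -1.42 ± 0.52 (SE, limma adjusted p = 0.11) was -1.87 and passed without knockout replicate 2 (adjusted p = 0.034), was -0.86 without knockout replicate 3 (adjusted p = 0.23) and was -0.19 without knockout replicates 1 and 3 (adjusted p = 0.44). Nppb, B-type natriuretic peptide and the neighbour of Nppa on chromosome 4, was at 5.42 to 5.61 in stabilized and 5.60 to 5.70 in knockout lungs with no such pair of high arrays (limma adjusted p = 0.19).

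The promoter of Nppa is shown because this gene varied most within a group (GRCm38.p6, chr4:148000472-148000721, plus strand).
Nppa: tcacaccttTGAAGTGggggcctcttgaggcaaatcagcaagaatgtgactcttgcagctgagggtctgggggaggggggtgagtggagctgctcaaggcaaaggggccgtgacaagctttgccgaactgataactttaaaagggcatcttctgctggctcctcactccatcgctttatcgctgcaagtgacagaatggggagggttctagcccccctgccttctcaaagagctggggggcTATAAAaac
It holds an NKX2-5 motif at -241 to -235 and a TATA motif at -9 to -4. Nkx2-5, the cardiac homeobox factor, had 6.73 to 7.05 in stabilized and 6.84 to 6.95 in knockout lungs, a difference of -0.01 ± 0.08 (SE, limma adjusted p = 0.96). Tbx5, a T-box factor of the heart that lung mesenchyme also expresses, was at 8.49 to 8.63 in stabilized and 8.71 to 8.79 in knockout lungs, without overlap but not past the threshold (limma adjusted p = 0.098). Ankrd1, a stress-responsive ankyrin repeat protein of muscle, was at 7.67 to 8.49 in stabilized lungs and 7.44 to 7.82 in knockout lungs, with overlap. Its positive difference of 0.38 ± 0.14 (SE, limma adjusted p = 0.13) was 0.51 and passed without stabilized replicate 3 (adjusted p = 0.031), and was 0.23 without stabilized replicate 2 (adjusted p = 0.28).

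Groups that did not overlap were counted apart from the threshold. Over all genes 7.82% were lower and 9.06% were higher in stabilized lungs without overlap. Of the 37 genes, 16 were lower and 1 was higher in this way. These were 6 of 12 in the cardiac class, all lower, 11 of 21 in the shared class, 10 of them lower, and 0 of 4 in the skeletal class.

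**Figure D3:**
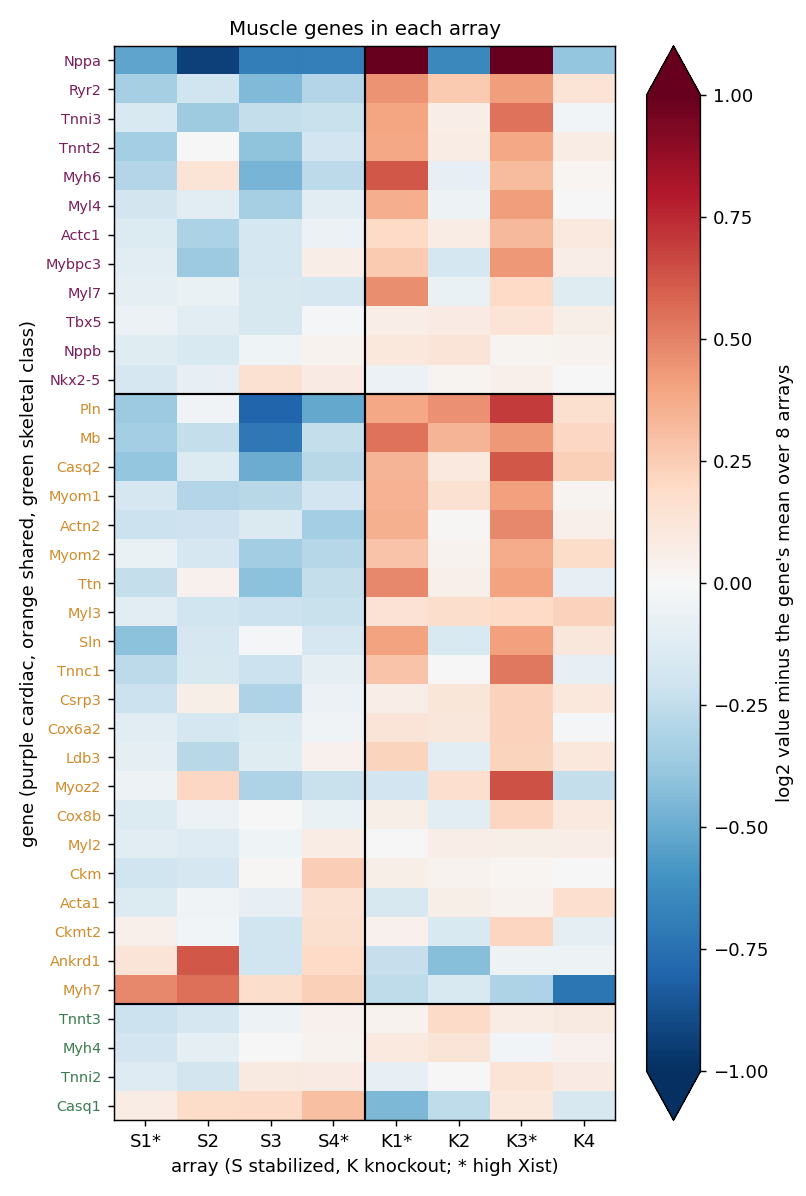
Log2 value of each gene in each array minus its mean over the 8 arrays, with stabilized arrays (S) left of knockout arrays (K) and an asterisk on high-Xist arrays. The colour scale stops at 1 in either direction, which Nppa exceeds. Knockout replicates 1 and 3 carry the deepest red in the cardiac class, while the skeletal class shows little pattern.

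Across arrays the classes did not move alike. The mean log2 level of the cardiac class was 7.59, 7.59, 7.54 and 7.65 in stabilized lungs and 8.20, 7.77, 8.27 and 7.80 in knockout lungs. Stabilized lungs were even (SD 0.04) and knockout lungs split into a higher pair, replicates 1 and 3, and a lower pair (SD 0.26). Leaving Nppa out of the class kept the order, with 7.69 to 7.81 in stabilized and 8.21, 7.94, 8.21 and 7.95 in knockout lungs. The shared class lay at 6.44, 6.53, 6.35 and 6.50 in stabilized and 6.74, 6.62, 6.87 and 6.60 in knockout lungs, with the same pair highest. The skeletal class lay at 5.46, 5.52, 5.64 and 5.70 in stabilized and 5.48, 5.60, 5.65 and 5.60 in knockout lungs, where the groups overlapped.

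The higher pair of knockout arrays was the high-Xist pair. In stabilized lungs both high-Xist arrays were above both others in 5 of 12 cardiac genes (41.7%), 4 of 21 shared genes (19%) and 0 of 4 skeletal genes, against 16.5% of all genes. In knockout lungs this order held in 9 of 12 cardiac genes (75%), 11 of 21 shared genes (52.4%) and 0 of 4 skeletal genes, against 16.4% of all genes. The cardiac genes without it in knockout lungs were Nppb, Nkx2-5 and Tbx5. The mean of the high-Xist pair minus that of the other pair was 0.21 among stabilized and 2.45 among knockout arrays for Nppa, -0.11 and 0.50 for Myh6, and 0.10 and 0.45 for Tnni3. With 2 mice to a pair, sex and differences between single mice cannot be told apart, and the part of this pattern in the group difference was not tested.

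Set within each Xist pattern, where 2 arrays stood against 2, the direction mostly stayed and the size differed. Among high-Xist arrays 33 of 37 differences were negative with a median of -0.35, and among low-Xist arrays 32 were negative with a median of -0.19. The medians over all genes were 0.01 and -0.02. By limma 14 of the 37 genes were lower and 1 higher in the high-Xist arrays, against 452 and 218 of 19937 genes. In the low-Xist arrays 0 of the 37 were called, against 232 lower and 122 higher of 19937. Both settings reuse arrays of the main comparison and are no separate support for it. Mb differed by -0.77 and -0.75 in the high- and low-Xist arrays, Ryr2 by -0.75 and -0.52, Pln by -0.98 and -0.72 and Myh7 by 0.64 and 0.80. Tnnt2 differed by -0.66 and -0.28, Tnnc1 by -0.59 and -0.15 and Nppa by -2.54 and -0.30. With knockout replicates 1 and 3 left out, 5 genes were lower, namely Myl3, Pln, Mb, Ryr2 and Casq2, and 2 were higher, Myh7 and Casq1. Over all 19937 genes calls also fell in this smaller comparison, to 487 lower and 308 higher, from 989 and 928 with all arrays. The calls of Tnnt2, Tnni3, Actc1, Actn2, Myom1 and Myom2 were lost (limma adjusted p = 0.18, 0.13, 0.17, 0.13, 0.061 and 0.11), and with Xist as a covariate those of Myl4, Tnnc1, Ttn and Nppa were gained (adjusted p = 0.023, 0.042, 0.045 and 0.036).

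**Figure D4:**
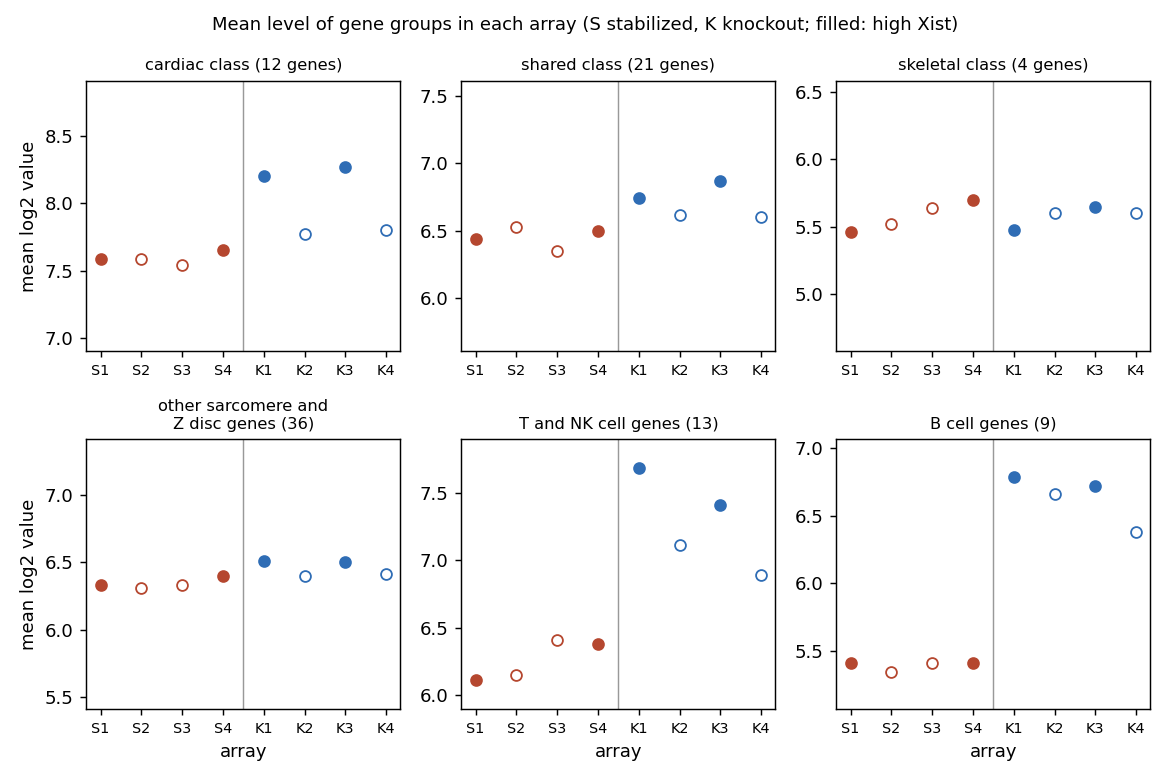
Mean log2 value (vertical axis, each panel spanning the same range of 2) of 6 gene groups in each array, with stabilized arrays (S, red) left of knockout arrays (K, blue) and filled points for high-Xist arrays. Knockout replicates 1 and 3 are the highest knockout arrays in every panel except that of the skeletal class, which stays level.

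Markers of T and NK cells were highest in the same knockout arrays. The mean log2 level of 13 T and NK cell genes was 6.11, 6.15, 6.41 and 6.38 in stabilized and 7.68, 7.11, 7.41 and 6.89 in knockout lungs, and 11 of the 13 were called lower, among them Cd8a at -1.59 ± 0.19 and Il7r at -1.43 ± 0.11 (SE, limma adjusted p = 2.4e-04 and 8.4e-06). The high-Xist pair of knockout arrays was above the other pair in 11 of these 13 genes. Among stabilized arrays replicates 3 and 4 were highest for T and NK cells. The cardiac class was lowest in stabilized replicate 3 and highest in stabilized replicate 4, at 7.54 and 7.65. All 9 B cell genes were called lower, with means of 5.34 to 5.41 in stabilized and 6.79, 6.66, 6.72 and 6.38 in knockout lungs. The high-Xist pair of knockout arrays was above the other pair in 6 of these 9 genes. Cd79a differed by -1.86 ± 0.12 (SE, limma adjusted p = 2.3e-06), and unlike the mean of its list its highest knockout value, 7.50, was in replicate 2. Thymus genes had 3 of 12 lower and 11 of 12 differences negative, with a median of -0.12. Their means were 4.96 to 5.09 in stabilized and 5.40, 5.26, 5.32 and 5.18 in knockout lungs, with replicates 1 and 3 highest. The lower ones were Satb1, Themis and Ccr9 at -0.84, -1.09 and -0.40 (limma adjusted p = 6.9e-04, 0.0044 and 0.03). The other 9 were not called, among them Foxn1 at -0.19 ± 0.08 (SE, limma adjusted p = 0.16). Adipose genes had 1 of 11 lower, Cidec at -0.42 ± 0.09 (SE, limma adjusted p = 0.013), with means of 5.25 to 5.50 in stabilized and 5.48 to 5.67 in knockout lungs. As in the cardiac class, all differences were negative (11 of 11), with a median of -0.17. Over all 19937 genes 4.96% were called lower and 10398 differences were negative. The part of these markers in the muscle result was not tested.

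Skeletal muscle, smooth muscle and oesophageal lists were also counted, beside 4.96% lower and 4.65% higher over all genes. Of 28 further skeletal muscle genes, 2 were lower and 0 higher, with means of 5.06 to 5.22 in stabilized and 5.20 to 5.26 in knockout lungs and a median difference of -0.06. The lower ones were Apobec2 and Ampd1, both of skeletal muscle, at -0.34 ± 0.09 and -0.29 ± 0.08 (SE, limma adjusted p = 0.036 and 0.049), while Tnni1 and Myog had -0.19 ± 0.07 and -0.24 ± 0.09 (SE, adjusted p = 0.14 each). Of 14 smooth muscle genes, Hhip, a hedgehog-binding protein, was lower at -0.63 ± 0.12 (SE, limma adjusted p = 0.0063) and 0 were higher. The contractile genes Mylk, Tagln and Cnn1 had positive differences of 0.21, 0.26 and 0.19 that did not pass (limma adjusted p = 0.063, 0.073 and 0.18). They were among the genes of smallest p, and over the 14 genes 9 differences were positive and 5 negative, with a median of 0.04. The oesophageal epithelium list had 0 of 11 called (limma, smallest adjusted p = 0.13, for Pitx1) and means of 4.43 to 4.58 in stabilized and 4.51 to 4.63 in knockout lungs.

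Lists of other genes of the cardiomyocyte programme had calls in both directions. Over all genes 4.96% were called lower and 4.65% higher. The muscle energy, calcium cycling and cardiac transcription factor lists lay near these shares. Of 36 further sarcomere and Z disc genes, 5 were lower and 0 higher, with a median difference of -0.12. Fhl2, a LIM protein of heart, and Hspb7, a cardiac small heat shock protein, had -0.48 ± 0.11 and -0.45 ± 0.10 (SE, limma adjusted p = 0.015 and 0.013). Rbm24, an RNA-binding protein of muscle splicing, and Tmod1, which caps thin filaments and is also made in red cells, had -0.42 ± 0.10 and -0.33 ± 0.08 (SE, adjusted p = 0.019 and 0.015). The fifth was Smyd1, a muscle methyltransferase, at -0.30 ± 0.08 (SE, adjusted p = 0.033), which was named after its values were seen. Of 24 muscle energy genes, Ldhb, the lactate dehydrogenase form of heart, was lower at -0.52 ± 0.06 (SE, limma adjusted p = 1.8e-04), Phka1, a phosphorylase kinase subunit, was higher at 0.26 ± 0.07 (SE, adjusted p = 0.036), and Coq8a and Fabp3 had -0.26 ± 0.08 and -0.40 ± 0.13 (SE, adjusted p = 0.05 after rounding and 0.073, neither called).

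Of 19 cardiac ion channels and connexins, 4 were higher and 2 lower. Gja5 and Gja1, connexins of atrium and endothelium and of ventricle and many other cells, were higher by 0.88 ± 0.09 and 0.69 ± 0.10 (SE, limma adjusted p = 6.9e-05 and 0.0012), and Cacna1d, a calcium channel, and Gjc1, another connexin, by 0.33 ± 0.07 and 0.26 ± 0.06 (SE, adjusted p = 0.0073 and 0.023). The lower ones, named after their values were seen, were the channels Kcnj5 and Hcn2 at -0.25 ± 0.06 and -0.22 ± 0.06 (SE, adjusted p = 0.024 and 0.044). Of 17 calcium cycling genes, Slc8a1, the sodium-calcium exchanger of heart and other tissues, was higher at 0.40 ± 0.11 (SE, limma adjusted p = 0.037) and 0 were lower. Among 20 cardiac transcription factors, Mef2d was lower at -0.30 ± 0.07 (SE, limma adjusted p = 0.013), and Shox2, Mef2c and Gata4 had -0.18, -0.16 and -0.18 (adjusted p = 0.16, 0.22 and 0.22). Of 14 genes listed as atrial, Corin, the protease that activates atrial natriuretic peptide, was higher at 0.47 ± 0.09 (SE, limma adjusted p = 0.0046). Tmem182, a muscle membrane protein, Clu and Stard10 were lower at -0.53 ± 0.10, -0.34 ± 0.07 and -0.24 ± 0.06 (SE, adjusted p = 0.0051, 0.0077 and 0.035). Which cells of the lung made these transcripts was not measured. Of 14 non-muscle counterparts of the sarcomere and energy genes, such as cytoplasmic myosins, 0 were lower and 2 were higher, Myl12a and Ckmt1, each at 0.30 ± 0.08 (SE, limma adjusted p = 0.029 and 0.033).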

How the data were processed

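Total lung RNA of 8 mice was measured on Affymetrix whole-transcript arrays. RMA and affy are the tools named, per the submitters' processing notes, and the deposited values are log2 expression per probe set. RMA subtracts background and normalizes quantiles across arrays, which compresses changes of dim genes and hides changes in total RNA. Array medians were 5.97 to 6.03. Arrays have no read depth, and 4 arrays per group limit the precision. Of 34760 probe sets, 21640 had 1 gene symbol in the platform annotation, 1321 had several and 11799 had none listed and stayed unnamed, leaving 19937 genes by brightest probe set. The genome build of the probes was not stated. Promoters came from RefSeq (GRCm38.p6).

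All genes were fitted with limma 3.58.1 (R 4.3.3, lmFit and eBayes, no covariate, no filter), stabilized minus knockout, with calls below 0.05 after Benjamini-Hochberg adjustment. SE is limma's moderated error, and SD is over 4 arrays. The fit was tested on simulated data. Members and lists were chosen with earlier results of these data known. The text names all members, genes from among the 4 with the smallest p of a list (others are marked), and the sex-linked genes. It also names the 8 genes most like the cardiac class, with Gm and Rik gene models left out. Same-numbered arrays of the 2 groups had deviations correlated at -0.01 to 0.08, so replicate numbers were not treated as pairs. Alternatives covered normalization, probe set choice, a filter, the prior, covariates and leaving out arrays.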

Additional observations from a re-analysis of the deposited data

How the results depend on the processing

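With the replicate number as a block, 962 genes were lower and 866 higher, and the calls of the 37 genes stayed at 11 lower and 2 higher. Each of the 37 genes was refitted under up to 20 alternatives (fewer for genes below the median level, which the filter removes). Of 726 such fits, 643 kept direction and side of the threshold, 35 lost a call, 32 gained one and 16 changed sign. The last were small differences of 4 uncalled genes. Nkx2-5 gave 0.03 after centring arrays on their medians, 0.04, 0.02 and 0.01 without stabilized replicates 1 and 2 and knockout replicate 3, and 0.02 in the low-Xist arrays. Ckmt2 gave 0.03 after repeated quantile normalization and after centring, 0.00, 0.06, 0.01 and 0.06 without stabilized replicates 2 and 3 and knockout replicates 1 and 3, 0.12 without both knockout replicates 1 and 3 and 0.01 in the low-Xist arrays. Acta1 gave 0.00 without knockout replicate 4 and 0.08 in the high-Xist arrays, and Ckm 0.00 without stabilized replicate 1. Leaving out 1 array spanned -0.11 to 0.00 for Acta1, -0.06 to 0.04 for Nkx2-5, -0.15 to 0.00 for Ckm and -0.06 to 0.06 for Ckmt2.

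Over all genes, centring each array gave 1495 higher of 2321 called (64.4%, against 48.4%), at a shift of the median difference to 0.03. Keeping genes above the median level gave 584 lower and 1121 higher among 9968 genes (65.7% higher). With knockout replicates 1 and 3 left out, a setting chosen after the data were seen like the next, 487 were lower and 308 higher. Within high-Xist arrays these were 452 and 218, and within low-Xist arrays 232 and 122. Leaving out 1 array gave 713 to 957 lower and 503 to 882 higher, the fewest without stabilized replicate 1, with 519 higher without knockout replicate 3.

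Of the 37 genes, leaving out 1 array gave 9 to 15 lower and 1 to 2 higher, 2 to 6 lower in the cardiac class, the fewest without knockout replicate 3, 7 to 10 lower and 1 to 2 higher in the shared class, the second being Ankrd1, and 0 to 1 higher in the skeletal class. Without both knockout replicates 1 and 3, 5 were lower, 1 cardiac and 4 shared. In the low-Xist arrays, 2 against 2, 0 were lower or higher in any class. With Xist as a covariate, above the median level or in the high-Xist arrays 1 was higher, with 0 in the skeletal class, because Casq1 was lost or removed. The cause of other losses was not tested. Probe signal near background limits the dim genes, and 14 of the 37 lay below the median gene level of 6.42.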

Other observations

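Further lists lie outside the muscle account. Of 8 mesothelial and epicardial genes, 4 were higher and 0 lower in stabilized lungs, with means of 7.87 to 7.98 in stabilized and 7.55 to 7.66 in knockout lungs. They were Upk1b, Msln and Upk3b, genes of the lung's surface layer, at 0.98 ± 0.07, 0.45 ± 0.07 and 0.25 ± 0.06, and Tcf21, a factor of lung and heart mesenchyme, at 0.64 ± 0.11 (SE, n = 4 per group, limma adjusted p = 7.5e-06, 0.0017, 0.02 and 0.0033). Of 10 endothelial genes, the noradrenaline transporter gene Slc6a2 was lower at -0.84 ± 0.11 (SE, limma adjusted p = 6.1e-04) and 9 did not pass. Of 7 nerve genes 0 were called by limma.

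Genes whose deviations from the group means over 8 arrays most resembled the mean deviation of the cardiac class were sought across the array. Gene models with Gm or Rik names were left out of the ranking. The 8 nearest of the rest outside the 37 were Adig, Surf1, Septin9, Vps37c, Olfr870, Ddx19b, Tubg2 and Olfr1195. Of these 8, 0 were called by limma (smallest adjusted p = 0.12, for Ddx19b). With so few arrays 251 genes (1.26%) came as close as a correlation of 0.8, among them 5 cardiac, 3 shared and 0 skeletal members. The cardiac members enter the mean they are set against, and Nppa, which varied most, correlated with it at 0.97. This likeness is a description with no test.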
